A study of Homo sapiens with 12 samples.

Results

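The 10 genes described here encode members of the HSP70 chaperone family: HSPA6, HSPA1A, HSPA1B, HSPA1L, HSPA2, HSPA8, HSPA4, HSPA9, HSPA13 and HSPA14. They were found by gene name in both deposited count tables, as 10 of 48283 features present in either table, and all 10 passed the filter on low counts in each cell line. The set was selected on measured values, namely gene counts scaled to equal library totals (CPM) in VE-822 against DMSO in each line. That contrast is therefore given for these genes as a description, without p-values.

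HSP70 proteins bind exposed hydrophobic stretches of unfolded proteins and release them in a cycle driven by ATP. J-domain proteins deliver clients and start hydrolysis, and nucleotide exchange factors release ADP so that the client can leave. Heat shock factor HSF1 binds heat shock elements in the promoters of the inducible genes when unfolded proteins accumulate, whereas other family members are made constitutively, in the cytosol, the mitochondrion or the endoplasmic reticulum.

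The 12 libraries of poly(A) RNA came from 92.1 and MP38, 2 established human uveal melanoma cell lines. The 4 groups of 3 libraries each were 92.1 in VE-822, 92.1 in DMSO, MP38 in VE-822 and MP38 in DMSO, all for 72 h. VE-822 (berzosertib) inhibits ATR, a kinase activated at stalled replication forks, and DMSO is its solvent. The concentration is not in the labels and was set for roughly 40% viability, per line, so dose and line cannot be told apart. Separate cultures are not named in the labels, so p-values measure the spread between these libraries, which may be technical.

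Total counts per library were 113370680 to 137664800 in 92.1 with VE-822 and 112374503 to 123705501 in 92.1 with DMSO. They were 54415628 to 60891725 in MP38 with VE-822 and 61045071 to 63638976 in MP38 with DMSO. All 7 melanocyte markers were at 1 CPM or more in every group. Their summed CPM was 19640 to 19920 in 92.1 with VE-822, 18820 to 19040 in 92.1 with DMSO, 5452 to 5470 in MP38 with VE-822 and 4423 to 4595 in MP38 with DMSO. Markers of other cell types were low but several were higher with VE-822. The 4 fibroblast markers summed to 5.20 to 5.85 CPM in 92.1 with VE-822 and 2.67 to 3.71 with DMSO, and to 1.38 to 1.91 CPM in MP38 with VE-822 and 0.253 to 0.338 with DMSO. The 3 endothelial markers summed to 0.274 to 0.466 CPM in 92.1 with VE-822 and 0.0457 to 0.0831 with DMSO, and to 2.91 to 3.76 CPM in MP38 with VE-822 and 2.11 to 2.89 with DMSO. The 3 leukocyte markers summed to 0.819 to 0.872 CPM in 92.1 with VE-822 and 0.443 to 0.615 with DMSO, and to 0.441 to 0.636 CPM in MP38 with VE-822 and 0.237 to 0.311 with DMSO. The 3 epithelial markers stayed under 1 CPM in sum in every library. DCN had no count in either DMSO group, and KRT5 and CDH5 had none in 92.1 with DMSO. Mitochondrial transcripts took 10.3 to 10.6% of counts in 92.1 with VE-822 and 9.11 to 9.32% in 92.1 with DMSO, and 8.50 to 8.70% in MP38 with VE-822 and 6.82 to 7.26% in MP38 with DMSO. The part of these markers and transcripts in the results was not tested. DMSO library 3 of 92.1 stood apart: its chi-square per gene against its 2 replicates was 93.0 and 93.6, while all other replicate pairs lay between 2.39 and 8.32. Values in 92.1 are also given without it at least where that moved a value by over 1.5 times or changed the call of a gene outside the family.

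The promoter sequences of HSPA6, HSPA8, HSPA1A and HSPA1B are shown because these 4 genes had the largest fold changes of the family in MP38 and because all 4 hold pairings of heat shock element units. Each is the 250 bases before the transcription start in RefSeq (GRCh38.p14). HSPA6 is at chr1:161524290-161524539 on the plus strand, HSPA8 at chr11:123062137-123062386 on the minus strand, HSPA1A at chr6:31815293-31815542 on the plus strand and HSPA1B at chr6:31827488-31827737 on the plus strand. Capitals mark GAANNTTC and TTCNNGAA, the pairings of the element's GAA unit, which read the same on both strands. Where the capitals run on, matches overlap.
HSPA6: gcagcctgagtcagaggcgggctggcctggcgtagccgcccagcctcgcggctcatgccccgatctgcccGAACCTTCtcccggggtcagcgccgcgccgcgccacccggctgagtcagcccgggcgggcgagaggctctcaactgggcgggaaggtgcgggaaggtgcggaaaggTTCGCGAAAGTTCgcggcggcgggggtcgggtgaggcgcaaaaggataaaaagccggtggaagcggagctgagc
HSPA8: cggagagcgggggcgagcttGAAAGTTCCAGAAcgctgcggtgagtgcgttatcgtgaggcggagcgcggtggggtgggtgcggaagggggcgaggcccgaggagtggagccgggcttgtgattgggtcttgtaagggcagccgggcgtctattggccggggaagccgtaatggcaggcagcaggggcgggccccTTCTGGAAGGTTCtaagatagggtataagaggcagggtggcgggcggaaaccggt
HSPA1A: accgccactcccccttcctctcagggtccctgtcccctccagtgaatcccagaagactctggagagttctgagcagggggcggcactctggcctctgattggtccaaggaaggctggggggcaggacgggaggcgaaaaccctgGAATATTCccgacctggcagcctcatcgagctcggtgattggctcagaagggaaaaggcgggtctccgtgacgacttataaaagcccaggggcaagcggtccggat
HSPA1B: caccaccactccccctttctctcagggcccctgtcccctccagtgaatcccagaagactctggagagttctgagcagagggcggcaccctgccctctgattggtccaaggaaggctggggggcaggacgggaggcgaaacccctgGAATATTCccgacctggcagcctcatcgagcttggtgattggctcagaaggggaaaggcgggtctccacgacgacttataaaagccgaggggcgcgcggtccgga

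Over the 300 bases from 250 before to 50 after the start, HSPA6 held 2 matches to GAANNTTC and 1 to TTCNNGAA. HSPA8 held 2 of each. HSPA1A and HSPA1B held 1 GAANNTTC each, and their printed sequences were identical at 235 of 251 aligned positions (93.6%). A run of 3 alternating units, called here a 3-unit element, occurred in HSPA6 once, starting 74 bases before the start, and in HSPA8 at 2 places, 230 and 55 bases before it. Of all 35116 windows of that length, 6.77% held GAANNTTC, 7.74% held TTCNNGAA and 0.490% held a 3-unit element. HSPA1A, HSPA1B and HSPA1L each held 2 CCAAT and 1 TATAAA, HSPA8 held 2 CCAAT and HSPA2 held 1 CCAAT. Of all windows, 34.6% held CCAAT and 11.5% held TATAAA. HSPA1L, transcribed away from HSPA1A, has a window that overlaps the HSPA1A promoter and held the same GAANNTTC. In the window of HSPA9 a single TTCNNGAA lay across the start. HSPA2, HSPA4 and HSPA13 held neither pairing, and HSPA14 had no entry. These matches describe letters and show no binding.

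In 92.1 the inducible HSPA6 and HSPA1A were 49.99-fold and 4.802-fold higher with VE-822, and in MP38 they were 3.36-fold and 1.92-fold lower with VE-822. Constitutive HSPA8 was 2.25-fold lower with VE-822 in MP38, and HSPA9 differed in opposite directions in the lines. Counting calls by edgeR's quasi-likelihood test at an adjusted p under 0.05, 2 of the 10 genes were higher and 3 lower in 92.1 with VE-822. Over all 22943 genes tested there, 20.3% were called higher and 19.6% lower. In MP38, 1 of the 10 was higher and 5 lower, where 26.9% of 21415 genes were called higher and 25.4% lower. Since these contrasts selected the genes, nothing is read from either count. Without DMSO library 3 the 92.1 count was 3 higher and 6 lower, beside 6377 higher and 6899 lower of all 23816 genes tested. The median log2 fold change of the 10 genes was −0.15 in 92.1, where that of all genes was 0.03, and −0.20 in MP38, where that of all genes was −0.01. In bulk RNA, fewer cells expressing a gene and less RNA per cell cannot be told apart.

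**Figure D1:**
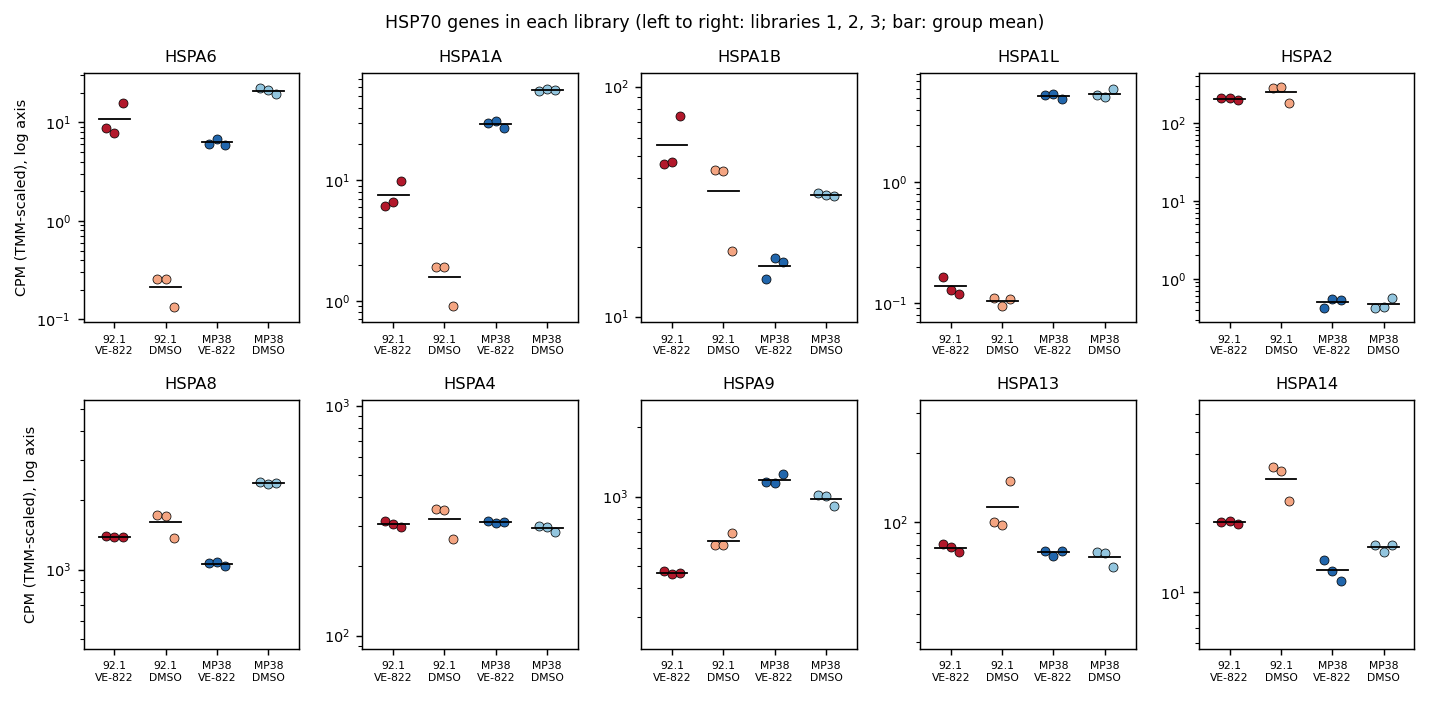
CPM (TMM-scaled within each line, log axis) of the 10 HSP70 genes in each of the 12 libraries, with VE-822 left of DMSO in each line. Points are libraries 1 to 3 from left to right and bars are group means. HSPA6 lay between 7.83 and 15.6 CPM in 92.1 with VE-822 and between 0.133 and 0.256 CPM in 92.1 with DMSO.

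HSPA6 (ENSG00000173110.8, chr1:161524540-161526894 in the files) encodes HSP70B′, usually described as nearly silent in unstressed human cells. In MP38 with DMSO it was not near silence, at 19.5 to 22.3 CPM. In 92.1 it had 8.75, 7.83 and 15.6 CPM with VE-822, against 0.256, 0.256 and 0.133 CPM with DMSO. The VE-822 values rested on 1214, 1090 and 1846 counts and the DMSO values on 28, 30 and 16. The groups did not overlap, VE-822 library 3 was the highest and DMSO library 3 the lowest. The log2 fold change was 5.64 ± 0.36 (SE, n = 3 each) and 5.35 without DMSO library 3. In MP38 HSPA6 had 6.10, 6.84 and 5.84 CPM with VE-822, against 22.3, 21.5 and 19.5 CPM with DMSO. Every VE-822 library of MP38 was below every DMSO library, with a log2 fold change of −1.75 ± 0.07 (SE, n = 3 each).

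HSPA6 shares 27.6% of its 100-base transcript stretches with HSPA7, an unprocessed pseudogene on the same chromosome, so part of its counts is uncertain. HSPA7 had 0.367 to 1.07 counts per 100 HSPA6 counts in 92.1 with VE-822 and 3.33 to 12.5 in 92.1 with DMSO. These DMSO ratios rest on 16 to 30 HSPA6 counts and still fewer HSPA7 counts a library, so they are imprecise. HSPA7 was too low to test in 92.1 with all libraries. In MP38 HSPA7 had 23.2 to 30.5 per 100 with VE-822 and 16.1 to 17.8 with DMSO. Summing both genes left the order within each line as it was: 7.86 to 15.7 CPM in 92.1 with VE-822, 0.150 to 0.283 CPM in 92.1 with DMSO, 7.51 to 8.50 CPM in MP38 with VE-822 and 22.9 to 25.9 CPM in MP38 with DMSO.

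HSPA1A and HSPA1B encode the main stress-inducible cytosolic HSP70 and lie near each other on chromosome 6. HSPA1A had 6.09, 6.64 and 9.81 CPM in 92.1 with VE-822, against 1.91, 1.89 and 0.897 CPM with DMSO, a log2 fold change of 2.26 ± 0.28 (SE, n = 3 each) and 1.95 without DMSO library 3. These groups did not overlap. In MP38 HSPA1A had 29.8, 31.1 and 27.4 CPM with VE-822, against 55.7, 57.5 and 56.0 CPM with DMSO, a log2 fold change of −0.94 ± 0.05. There every VE-822 library was lower. All errors of log2 values are SE from edgeR's fit, with 3 libraries per group. Each is the absolute log2 value over the square root of F, the statistic of its quasi-likelihood test. In the comparison of the lines in DMSO the spread was shared over all 12 libraries.

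HSPA1B had 46.3, 47.2 and 74.2 CPM in 92.1 with VE-822, against 43.2, 43.0 and 19.4 CPM with DMSO. The groups were next to each other without overlap, and the difference in means rested largely on library 3 of each group. Libraries 1 and 2 averaged 46.7 CPM with VE-822 and 43.1 with DMSO, where all 3 averaged 55.9 and 35.2. The log2 fold change of HSPA1B was 0.67 ± 0.30, and 0.34 without DMSO library 3. In MP38 HSPA1B had 14.5, 18.0 and 17.2 CPM with VE-822, against 34.3, 33.7 and 33.4 CPM with DMSO, a log2 fold change of −1.02 ± 0.06.

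The 2 copies share most of their transcript: 67.3% of the 100-base stretches of HSPA1A and 72.7% of those of HSPA1B also occur in another gene, mostly the other copy. How the authors' counting treated reads that fit both is not given in the sources used here, so their split is uncertain. HSPA1A took 11.9% ± 0.4 (SD, n = 3) of the summed counts of the 2 in 92.1 with VE-822 and 4.29% ± 0.12 in 92.1 with DMSO. In MP38 its share was 64.0% ± 3.0 with VE-822 and 62.5% ± 0.6 with DMSO. The summed level was 52.4, 53.9 and 84.0 CPM in 92.1 with VE-822, against 45.1, 44.9 and 20.3 CPM with DMSO. In MP38 it was 44.4, 49.1 and 44.6 CPM with VE-822, against 90.1, 91.1 and 89.4 CPM with DMSO. Summed, the copies kept the opposite order of groups in the lines. In 92.1 the difference in means rested largely on library 3 of each group, as for HSPA1B.

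**Figure D2:**
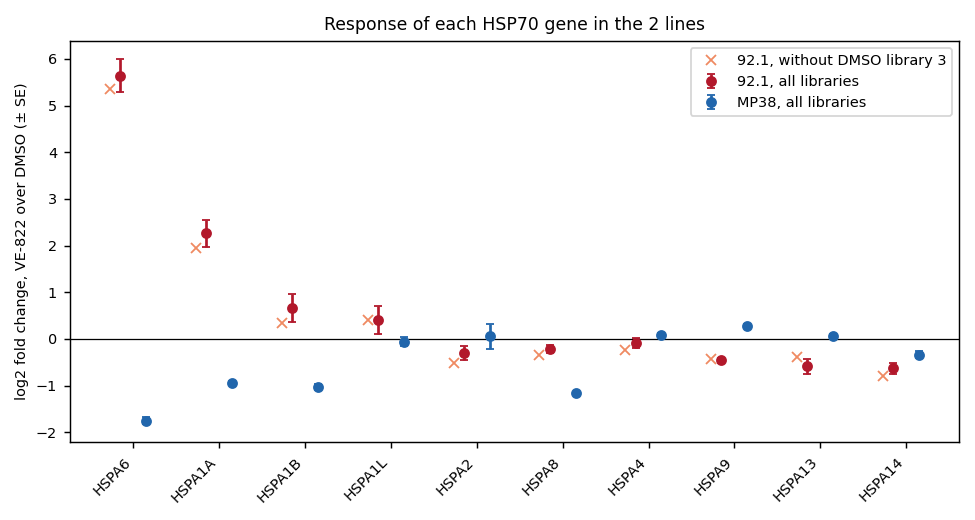
Log2 fold change of VE-822 over DMSO (± SE, 3 libraries per group) of each HSP70 gene in 92.1 and MP38, with crosses for 92.1 without DMSO library 3. HSPA6 was at 5.64 in 92.1 and −1.75 in MP38, and HSPA1A at 2.26 and −0.94.

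HSPA1L, a testis-enriched relative next to HSPA1A, stayed low in 92.1, with 0.166, 0.129 and 0.119 CPM in VE-822, against 0.110, 0.0937 and 0.108 CPM in DMSO. In MP38 it had 5.31, 5.44 and 4.94 CPM with VE-822, against 5.32, 5.07 and 5.94 CPM with DMSO. The MP38 groups overlapped. HSPA2, best known from the testis, showed the reverse preference for a line. It had 207, 206 and 196 CPM in 92.1 with VE-822, against 284, 285 and 180 CPM with DMSO, and under 0.6 CPM in every MP38 library. DMSO library 3 made the 92.1 groups overlap: the log2 fold change of HSPA2 was −0.30 ± 0.15 with it and −0.52 without it.

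HSPA8 (HSC70) is the constitutive cytosolic chaperone. In MP38 it had 1066, 1079 and 1037 CPM with VE-822, against 2402, 2359 and 2383 CPM with DMSO, a log2 fold change of −1.17 ± 0.04 (SE, n = 3 each). No MP38 library of one group came near the other group. In 92.1 it had 1403, 1391 and 1380 CPM with VE-822, against 1728, 1718 and 1379 CPM with DMSO. There the log2 fold change was −0.21 ± 0.08, and −0.34 without DMSO library 3.

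HSPA4, an HSP110-type relative that acts as a nucleotide exchange factor for HSP70, varied little. It had 314, 305 and 295 CPM in 92.1 with VE-822, against 354, 350 and 264 CPM with DMSO, and 315, 309 and 312 CPM in MP38 with VE-822, against 299, 298 and 283 CPM with DMSO. Its log2 fold changes were −0.08 ± 0.10 in 92.1 (−0.24 without DMSO library 3) and 0.09 ± 0.04 in MP38. HSPA14, part of a chaperone complex at the ribosome, was lower with VE-822 in both lines. It had 20.3, 20.5 and 19.8 CPM in 92.1 with VE-822, against 35.2, 33.6 and 24.9 CPM with DMSO, and 13.9, 12.4 and 11.2 CPM in MP38 with VE-822, against 16.1, 14.97 and 16.2 CPM with DMSO. Its log2 fold change was −0.63 ± 0.12 in 92.1 and −0.34 ± 0.07 in MP38.

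HSPA9 (mortalin) is the HSP70 of the mitochondrial matrix, where it pulls in imported proteins and takes part in iron-sulfur cluster assembly. It had 475, 461 and 465 CPM in 92.1 with VE-822, against 619, 614 and 693 CPM with DMSO, and 1157, 1145 and 1252 CPM in MP38 with VE-822, against 1021, 1002 and 909 CPM with DMSO. The groups did not overlap in either line, with log2 fold changes of −0.46 ± 0.06 in 92.1 and 0.28 ± 0.05 in MP38. HSPA13, a microsomal relative, had 80.3, 77.7 and 74.2 CPM in 92.1 with VE-822, against 100.1, 97.6 and 152 CPM with DMSO. DMSO library 3 was the highest, as for HSPA9, while it was the lowest 92.1 library for HSPA6, HSPA1A, HSPA1B, HSPA2, HSPA4 and HSPA8. The log2 fold change of HSPA13 was −0.59 ± 0.15 in 92.1 and −0.38 without DMSO library 3, and 0.07 in MP38.

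Per length, the order of the genes is read from the deposited FPKM (fragments scaled for feature length and library total). HSPA8 was first in all 4 groups, at 294 ± 2 FPKM in 92.1 with VE-822, 324 ± 41 in 92.1 with DMSO, 216 ± 9 in MP38 with VE-822 and 497 ± 3 in MP38 with DMSO (SD, n = 3 each). HSPA9 or HSPA4 came next: HSPA9 had 119 ± 3 FPKM in MP38 with VE-822 and 101 ± 6 with DMSO. HSPA9 and HSPA4 overlapped in 92.1 with DMSO, as did HSPA4 and HSPA2, HSPA2 and HSPA13, and HSPA1B and HSPA14. In 92.1 with VE-822 only HSPA1B with HSPA13, and HSPA6 with HSPA1A, overlapped among neighbours, and in MP38 no neighbours did. HSPA6 was 8th of 10 in 92.1 with VE-822 and 9th in 92.1 with DMSO, 8th in MP38 with VE-822 and 7th in MP38 with DMSO. The lowest was HSPA1L in 92.1 and HSPA2 in MP38.

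Summed over the 10 genes, FPKM reached 499.7 ± 10.7 in 92.1 with VE-822 and 547.7 ± 58.0 in 92.1 with DMSO. The 92.1 groups overlapped through DMSO library 3, at 480.7, and the other 2 DMSO libraries averaged 581.1. In MP38 the sum was 441.0 ± 9.0 with VE-822 and 728.8 ± 11.8 with DMSO, and these groups did not overlap. HSPA8 made up 58.8% ± 0.8 of the sum in 92.1 with VE-822 and 59.0% ± 1.3 with DMSO, and 48.9% ± 1.1 in MP38 with VE-822 and 68.3% ± 1.0 with DMSO. The inducible HSPA1A, HSPA1B and HSPA6 together took 6.12% ± 1.78 in 92.1 with VE-822 and 2.57% ± 0.80 with DMSO, and 4.8% ± 0.3 in MP38 with VE-822 and 6.37% ± 0.07 with DMSO. The large fold change of HSPA6 in 92.1 therefore moved a small part of the transcripts, 0.933% ± 0.363 of the sum with VE-822 and 0.0160% ± 0.0039 with DMSO.

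**Figure D3:**
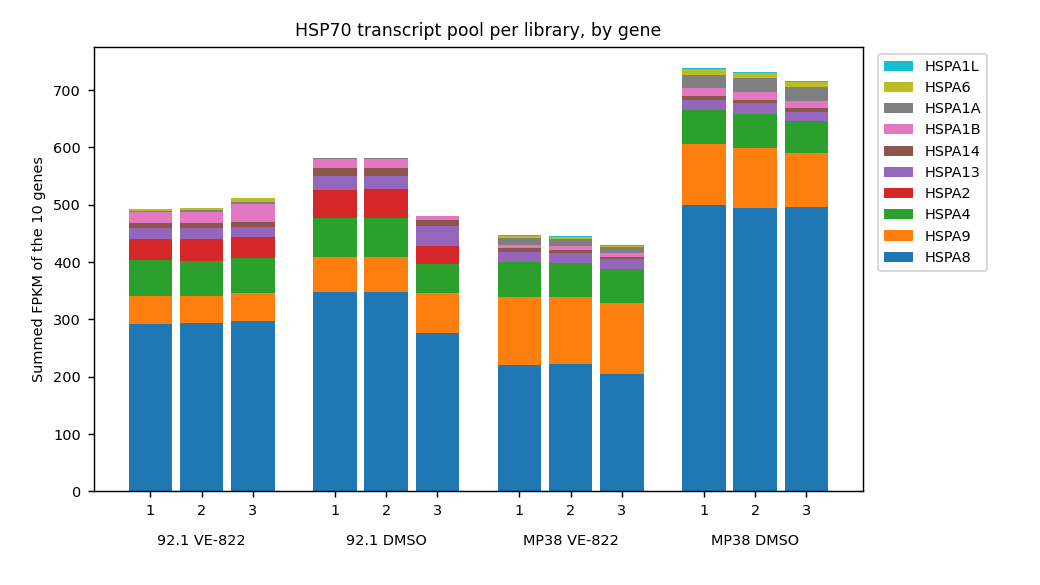
Summed FPKM of the 10 HSP70 genes in each library, stacked by gene, with VE-822 left of DMSO in each line. The MP38 DMSO bars average 728.8 FPKM and the MP38 VE-822 bars 441.0 FPKM, and HSPA8 is the largest block in every bar.

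The lines in DMSO were compared in 1 fit of all 12 libraries, which the choice of genes did not use, although the DMSO libraries also enter the contrasts that it did. Line, count table and any sequencing run cannot be told apart in it. By edgeR's quasi-likelihood test, 4 of the 10 genes were higher and 5 lower in 92.1 with DMSO than in MP38 with DMSO, where 38.5% of 24958 genes tested were higher and 41.2% lower. The share of members called was near this background and is no result about the family. HSPA2 had 298, 301 and 188 CPM in 92.1, against 0.400, 0.407 and 0.540 CPM in MP38, a log2 difference of 9.18 ± 0.21 (edgeR adjusted p = 5.41e-16). HSPA6 had 0.269, 0.270 and 0.139 CPM in 92.1, against 20.9, 20.2 and 18.2 CPM in MP38, a log2 difference of −6.45 ± 0.29 (edgeR adjusted p = 2.97e-12). HSPA1L, at −5.53 ± 0.16 (edgeR adjusted p = 1.41e-14), and HSPA1A, at −5.01 ± 0.21 (edgeR adjusted p = 1.74e-12), were lower in 92.1 too. The values of HSPA1A and HSPA1B depend on the uncertain split of reads between the 2 copies. Summed and scaled within each line, the copies had 45.1, 44.9 and 20.3 CPM in 92.1 with DMSO. In MP38 with DMSO their sum was 90.1, 91.1 and 89.4 CPM, and this difference was not tested.

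HSPA1B did not differ past the threshold, at 45.4, 45.4 and 20.2 CPM in 92.1 with DMSO and 32.3, 31.5 and 31.3 CPM in MP38 with DMSO (log2 0.22 ± 0.23, edgeR adjusted p = 0.385). Without DMSO library 3 of 92.1 it was called higher, at 0.52. The remaining genes differed less: HSPA14 by 1.15 ± 0.11, HSPA13 by 0.88 ± 0.12 and HSPA4 by 0.30 ± 0.08 were higher in 92.1, and HSPA9 by −0.44 ± 0.06 and HSPA8 by −0.40 ± 0.07 lower (edgeR adjusted p from 5.42e-08 to 0.00339). HSPA4 lost its call with library size alone as scaling, at 0.08, and among genes with at least 5 CPM, at 0.13. The median log2 difference of all genes was −0.27 with that scaling, against −0.05 with TMM, a shift of −0.22.

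The other genes of the heat shock response were taken from lists and kept their tests. Of 20 other heat shock factor targets, 19 were tested in 92.1, where 1 rose and 9 fell with VE-822 (median log2 −0.22, all genes 0.03), against 20.3% and 19.6% of all genes. In MP38, 8 rose and 9 fell of 20 (median −0.04, all genes −0.01), against 26.9% and 25.4% of all genes. CRYAB, the small heat shock protein αB-crystallin, rose in both lines, by log2 2.29 ± 0.16 in 92.1 (edgeR adjusted p = 1.44e-05) and 0.86 ± 0.04 in MP38 (edgeR adjusted p = 8.23e-14). It had 14.8, 14.99 and 17.9 CPM in 92.1 with VE-822, against 3.43, 3.88 and 2.42 CPM with DMSO. HSPB8, its relative, rose by 1.16 ± 0.05 in MP38 and was too low to test in 92.1 with all libraries. Without DMSO library 3 of 92.1 it passed the filter and was called higher. CHORDC1, an HSP90 cochaperone, and HSPB1 rose in MP38, by 0.65 and 0.53, and did not pass the test in 92.1, except CHORDC1, lower at −0.42, without DMSO library 3.

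DNAJB1, the J-domain partner of inducible HSP70, had 109.3, 109.7 and 122 CPM in 92.1 with VE-822, against 143, 136 and 99.1 CPM with DMSO, and was not called (log2 −0.15 ± 0.12), but was called lower, at −0.32, without DMSO library 3. In MP38 it fell by 0.23. HSPH1, the inducible HSP110, fell in both lines, by 0.35 ± 0.09 in 92.1 and by 0.45 ± 0.04 in MP38. So in 92.1 the higher HSPA6 and HSPA1A stood beside means of DNAJB1 and HSPH1 below those in DMSO. HSP90AA1, CACYBP and the mitochondrial chaperonin HSPD1 fell in 92.1, by 0.59, 0.63 and 0.56. Without DMSO library 3 of 92.1, 3 targets were higher and 15 lower, of 20 tested. Calls then rose among all genes too, to 6377 higher and 6899 lower of 23816 tested.

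**Figure D4:**
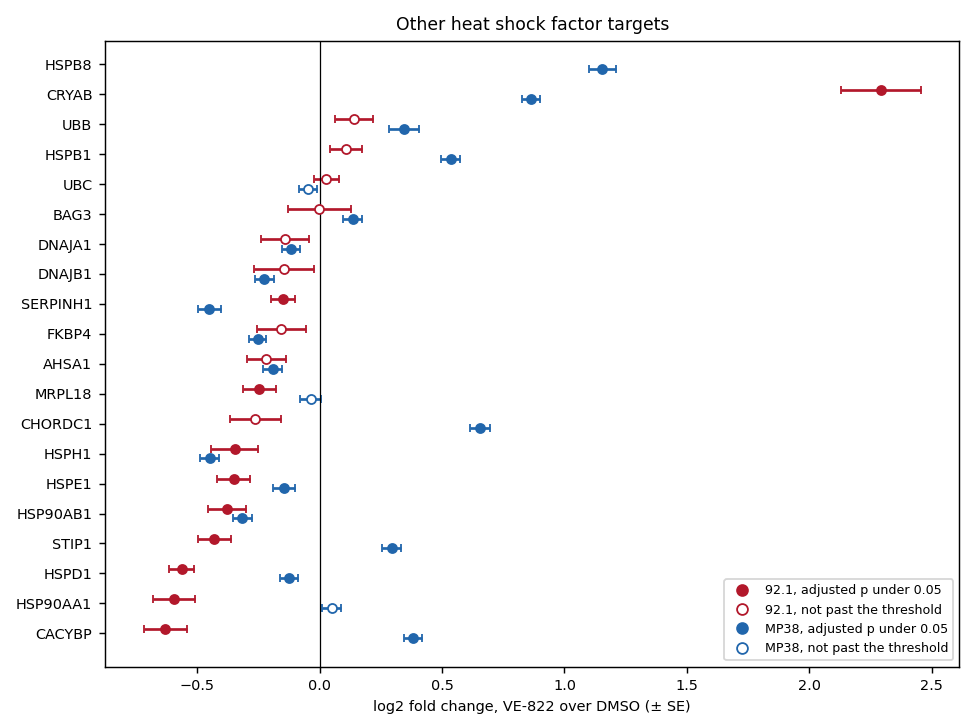
Log2 fold change of VE-822 over DMSO (± SE, 3 libraries per group) of 20 heat shock factor targets outside the family, sorted by the value in 92.1, filled where the edgeR adjusted p was under 0.05. CRYAB lay at 2.29 in 92.1 and 0.86 in MP38, and HSPB8 at 1.16 in MP38.

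Of the 12 nucleotide exchange factors, 1 rose and 6 fell in 92.1 (20.3% and 19.6% of all genes), and 5 rose and 2 fell in MP38 (26.9% and 25.4% of all genes). HSPA4L, an HSP110 relative, rose by 0.80 ± 0.06 in 92.1 (edgeR adjusted p = 1.78e-05), and BAG2 rose by 0.72 ± 0.05 in MP38 (edgeR adjusted p = 8.57e-11) and fell by 0.33 ± 0.11 in 92.1. BAG4 fell in both lines. Without DMSO library 3, 2 exchange factors were higher and 9 lower in 92.1, beside 6377 and 6899 of all 23816 genes tested. Of 13 cytosolic partners, 1 rose and 4 fell in 92.1, and 5 rose and 4 fell in MP38, beside the same shares of all genes. STIP1 (HOP), which links HSP70 to HSP90, fell by 0.43 ± 0.07 in 92.1 (edgeR adjusted p = 0.00108) and rose by 0.29 ± 0.04 in MP38 (edgeR adjusted p = 1.72e-06). ST13 (HIP), which steadies the HSP70 client complex, fell by 0.36 ± 0.04 in MP38. Without DMSO library 3, 2 cytosolic partners were higher and 8 lower in 92.1, beside the same numbers of all genes.

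Of 15 mitochondrial partners of HSPA9, 1 rose and 6 fell in 92.1 (20.3% and 19.6% of all genes), and 8 rose and 3 fell in MP38 (26.9% and 25.4% of all genes). The difference between the lines was not tested for the list. ISCU, the scaffold of iron-sulfur clusters, rose in both, by 0.58 in 92.1 (edgeR adjusted p = 3.63e-05) and 0.45 in MP38 (edgeR adjusted p = 5.13e-07). The proteases LONP1 and CLPP rose in MP38 by 0.40 and 0.25 and fell in 92.1 by 0.47 and 0.22. TIMM44, which anchors HSPA9 at the import channel, rose in MP38 by 0.36 and had a log2 fold change of −0.48 ± 0.17 in 92.1, not past the threshold, and of −0.24, called lower, without DMSO library 3. Without that library 2 partners were higher and 9 lower in 92.1, beside 6377 and 6899 of all 23816 genes tested. Medians of the list with all libraries were −0.07 in 92.1 and 0.18 in MP38.

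Of the 7 other HSP70 and HSP110 relatives, 2 rose and 3 fell of the 6 tested in 92.1 (20.3% and 19.6% of all genes). In MP38, 1 rose and 3 fell (26.9% and 25.4% of all genes). HSPA5 (BiP), the chaperone of the endoplasmic reticulum, had 1327, 1321 and 1735 CPM in MP38 with VE-822, against 1087, 1065 and 694 CPM with DMSO, a rise of 0.62 ± 0.12. In 92.1 it had 441, 429 and 432 CPM with VE-822, against 545, 548 and 418 CPM with DMSO, and was not called, or was called lower, at −0.36, without DMSO library 3. HSPA12A fell in both lines, by 0.48 in 92.1 and by 0.92 in MP38, and HSPA7 fell by 1.11 in MP38. Of the 4 genes of the heat shock factor list, 1 rose and 2 fell in 92.1 (20.3% and 19.6% of all genes). In MP38, 2 rose and 0 fell by edgeR (26.9% and 25.4% of all genes), by DESeq2 and at an unadjusted p under 0.05. Nothing is read from counts over so few genes. HSF4 rose by 0.26 in 92.1 (edgeR adjusted p = 0.00268) and was not called in MP38. HSF1 was called in neither line, or lower at −0.08 in 92.1 without DMSO library 3. HSF2 fell by 0.28 in 92.1 (edgeR adjusted p = 0.00535) and rose by 0.23 in MP38 (edgeR adjusted p = 0.00271), and HSBP1, which binds HSF1, fell by 0.18 in 92.1 and rose by 0.38 in MP38.

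Among 12666 protein-coding genes averaging 1 CPM or more, the 5 whose log2 CPM followed HSPA6 most closely over the 12 libraries were SRSF8 (Pearson r = 0.977), FTCD (0.976), PIDD1 (0.975), GSDMB (0.973) and SPTBN5 (0.973). SRSF8 averaged 98.7 CPM in 92.1 with VE-822, 49.8 in 92.1 with DMSO, 79.0 in MP38 with VE-822 and 99.2 in MP38 with DMSO. Of the family, HSPA1A came nearest to HSPA6, at 0.840, and HSPA13 was at −0.817. For HSPA8 the 5 were C11orf95 (0.986), DEAF1 (0.979), FAM117B (0.976), GIT1 (0.975) and RITA1 (0.970). The libraries fall into 4 groups of 3 that share line, treatment and count table, so these values describe the pattern of 4 group means and carry no p.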

How the data were processed

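Per the submitters' processing notes, the authors worked with STAR 2.7.11a, featureCounts 2.0.6, cutadapt 4.8, MultiQC 1.7 and FastQC 0.12.1 on GRCh38.p13; parameters and strand setting are not given in the sources used here. The authors deposited raw counts per gene and FPKM for each line. The deposited FPKM equal the counts scaled for length and total, within 0.0005.

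From the counts, edgeR 4.0.16 (R 4.3.3) gave TMM-scaled CPM, a filterByExpr filter (minimum count 10, total 15), a quasi-likelihood test per line and 1 joint fit for the line contrast, with Benjamini-Hochberg adjustment over all genes tested. A gene was called at an adjusted p under 0.05. DESeq2 1.42.0 and limma 3.58.1 on log2(FPKM + 1), on FPKM that the authors deposited, were alternatives. The fits were tested on simulated data. Members, lists and tests were chosen with earlier results of these data known. Named genes are all members, up to 4 called genes per list and line with the smallest adjusted p, and the 5 genes most like HSPA6 and HSPA8. HSF1 and DNAJA3 fall outside that rule and were chosen after their values were seen. Replicate numbers did not pair libraries. Promoter sequences are from RefSeq, and shared transcript stretches were counted in GENCODE transcripts. Proteins were not used here.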

Additional observations from a re-analysis of the deposited data

Results flagged for a closer look

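For 15 of the 65 HSP70 and list genes tested in both lines, every VE-822 library lay above every DMSO library in one line and below in the other. Over all 19146 genes tested in both lines this held for 3725 (19.5%). Of the list genes alone it held for 11 of 55, a share near that of all genes. For the 10 HSP70 genes nothing is read from their 4, since these contrasts selected them. The difference itself was not tested for any of the 15 genes. Differences are the log2 fold change in 92.1 minus that in MP38. Among the HSP70 genes, HSPA6 differed by 7.39, HSPA1A by 3.20 and HSPA1B by 1.69, all higher with VE-822 in 92.1 and lower in MP38. HSPA9 differed by −0.74, lower with VE-822 in 92.1 and higher in MP38.

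The 11 list genes had the same directions as HSPA9. Among cochaperones and exchange factors, BAG2 differed by −1.05, CACYBP by −1.01, STIP1 by −0.72, HSPBP1 by −0.40 and DNAJC7 by −0.39. HSPBP1 was not called in 92.1, at −0.16, but was called lower, at −0.24, without DMSO library 3. Among mitochondrial partners of HSPA9, LONP1 differed by −0.86, TIMM44 by −0.85, CLPP by −0.47 and DNAJA3 by −0.36. HSBP1 differed by −0.56 and HSF2 by −0.51.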

How the results depend on the processing

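Calls of members in VE-822 against DMSO are counts only, since that contrast selected them. No called log2 value of a member changed sign under any alternative. Of values not called, HSPA4 in 92.1 did with the 5 CPM filter (0.01), as did HSPA1L, HSPA2 and HSPA13 in MP38 on leaving out a library, with values of −0.020 to 0.0044. In MP38, members called higher were 2 with DESeq2 and 1 to 2 on leaving out each library, HSPA4 being the added gene. In 92.1, with a mean of at least 5 CPM 1 member was higher, HSPA1A falling below the filter, and without a filter on low counts 3 were higher, with HSPA1B added, and 5 lower, with HSPA8 and HSPA2 added. DESeq2 gave 4 lower, with HSPA8 added. Leaving out each 92.1 library gave 2 to 6 lower members. HSPA13 lost its call with the 5 CPM filter, with limma and without VE-822 library 3 (−0.56). With library size alone as scaling, 92.1 had 5684 genes higher and 3534 lower, and with limma on log2(FPKM + 1) 4704 and 2757, against 4658 and 4498 with TMM. A pseudocount of 0.1 gave 2775 lower. A pseudocount of 1 brought the log2 fold change of HSPA6 in 92.1 to 2.33, and 0.1 to 4.60.

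In MP38, limma gave 3 exchange factors, 3 cytosolic partners, 4 mitochondrial partners and 0 relatives higher, under both pseudocounts; edgeR gave 5, 5, 8 and 1. Heat shock factors called lower were 1 with library size only and with the 5 CPM filter, and 0 to 1 on leaving out libraries. In 92.1, limma gave under both pseudocounts 5 heat shock factor targets, 3 exchange factors, 2 cytosolic partners, 3 mitochondrial partners, 1 relative and 1 heat shock factor lower, and 0 cytosolic partners, 2 mitochondrial partners and 1 relative higher. The 5 CPM filter gave 2 targets, 2 cytosolic partners, 3 mitochondrial partners and 1 relative higher, 1 heat shock factor lower, and 2917 genes higher and 2805 lower. Library size alone gave 2 cytosolic and 2 mitochondrial partners higher and 1 heat shock factor lower, and RLE factors gave 0 cytosolic partners higher. Leaving out each 92.1 library gave 1 to 3 targets higher and 6 to 15 lower, 1 to 2 exchange factors higher, 0 to 2 cytosolic partners higher and 3 to 8 lower, 1 to 2 mitochondrial partners higher, 1 to 3 heat shock factors lower, and 3343 to 6899 genes lower; the upper ends are without DMSO library 3. Between lines, the 5 CPM filter gave 5212 genes higher and 5122 lower, fewer genes being tested. The cause of the other shifts was not tested.

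Same-numbered libraries correlated at −0.021 to −0.0030 in MP38 and 0.041 to 0.082 in 92.1, so the numbers were not taken as pairs, although in 92.1 each library correlated best with its own number. With the replicate block 5494 genes were higher and 5172 lower in MP38, 4429 and 4333 in 92.1, and 9562 and 10250 between lines. Near-zero levels, such as HSPA1L in 92.1 and HSPA2 in MP38, rest on 11 to 37 counts a library, which limits the precision of their responses to VE-822.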
